A study of Mus musculus with 2 samples.

Results

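Insulin signalling runs through a short chain of proteins, and 9 genes of that chain were followed in progenitor and endothelial cells of mouse fat. They were Insr, Irs1, Irs2, Pik3r1, Akt1, Akt2, Foxo1, Foxo3 and Fam13a, chosen by symbol from the 32246 symbols of the deposited tables, and each was found once. The set was chosen with earlier results of these data known, so counts of members beside shares of all genes are descriptions. The data were 2 droplet single-cell RNA-seq libraries of stromal vascular fraction cells from subcutaneous white adipose tissue, 1 from Paqr4 transgenic mice and 1 from WT mice. CD45, the surface protein that marks blood-derived cells, was used by flow cytometry to leave those cells out. The series text speaks of cells pooled from 3 mice and does not say whether that is 3 per genotype. The labels give no promoter for the transgene, no cell type in which it is active, no strain, no age and no treatment. With 1 library per genotype there was no replicate, so no difference between genotypes could be tested and no p-value or standard error is given.

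Insulin and the insulin-like growth factors bind receptor tyrosine kinases at the cell surface, which phosphorylate the docking proteins IRS1 and IRS2. These recruit PI3-kinase, whose lipid product activates the AKT kinases, and AKT keeps FoxO transcription factors out of the nucleus. FoxO factors in turn switch on genes of fasting, stress resistance and cell cycle arrest, and Irs2 and Insr are among their known targets, so the chain feeds back on itself. In preadipocytes this pathway is needed for differentiation into fat cells, and in blood vessels it acts on nitric oxide release and on the growth of endothelial cells.

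All 9 genes lie outside the sex chromosomes. On build GRCm38 with the GENCODE M21 annotation, Insr (ENSMUSG00000005534) spans chr8:3122061-3279617 and Irs2 (ENSMUSG00000038894) spans chr8:10984681-11008458, both on the minus strand. Irs1 (ENSMUSG00000055980) lies at chr1:82233101-82291416, Pik3r1 (ENSMUSG00000041417) at chr13:101680563-101768217 and Akt1 (ENSMUSG00000001729) at chr12:112653821-112674884, also on the minus strand. Akt2 (ENSMUSG00000004056) lies at chr7:27591552-27640826 and Foxo1 (ENSMUSG00000044167) at chr3:52268336-52353221, both on the plus strand. Foxo3 (ENSMUSG00000048756) at chr10:42181841-42276755 and Fam13a (ENSMUSG00000037709) at chr6:58932090-59024549 are on the minus strand. Exons make up 8.72% of the Insr span and 11.4% of the Fam13a span. The sources used here do not say whether reads in introns were counted or whether the counting used strand. Genes on the opposite strand overlap Irs1, Irs2, Insr, Foxo1 and Fam13a in the annotation, so reads of these could not be told from reads of the members without strand.

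RefSeq promoter windows on GRCm38.p6 were found for 8 of the 9 members, 13 windows in all, each from 250 bases before a transcription start to 50 after it. Both strands were searched for 4 motifs, namely the E-box CACGTG, the FoxO core TGTTTAC, the cyclic AMP response element TGACGTCA and the GC box GGGCGG. The 250 bases before the start are shown for the docking proteins Irs1 and Irs2, which peaked in different progenitor groups, for the pair of Pik3r1 promoters, and for Fam13a, which differed most between the libraries. Capitals mark an E-box or a GC box in either orientation, and all sequences read 5′ to 3′ on the minus strand.

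Irs1: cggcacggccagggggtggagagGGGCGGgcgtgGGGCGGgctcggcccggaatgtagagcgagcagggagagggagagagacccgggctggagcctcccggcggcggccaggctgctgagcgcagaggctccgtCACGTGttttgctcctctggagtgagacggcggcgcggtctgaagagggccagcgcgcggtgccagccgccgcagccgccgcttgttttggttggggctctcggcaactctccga
Irs2: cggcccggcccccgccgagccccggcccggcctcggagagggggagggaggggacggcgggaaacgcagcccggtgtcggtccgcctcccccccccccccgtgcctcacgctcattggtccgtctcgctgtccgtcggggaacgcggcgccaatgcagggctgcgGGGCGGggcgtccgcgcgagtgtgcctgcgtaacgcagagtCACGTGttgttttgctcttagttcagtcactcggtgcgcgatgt
Pik3r1 upstream promoter: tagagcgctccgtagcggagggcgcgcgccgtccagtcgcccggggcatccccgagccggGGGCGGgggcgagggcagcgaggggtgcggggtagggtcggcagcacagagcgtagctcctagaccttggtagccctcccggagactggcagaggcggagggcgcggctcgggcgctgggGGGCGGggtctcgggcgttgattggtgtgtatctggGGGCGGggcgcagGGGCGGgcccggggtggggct
Pik3r1 downstream promoter: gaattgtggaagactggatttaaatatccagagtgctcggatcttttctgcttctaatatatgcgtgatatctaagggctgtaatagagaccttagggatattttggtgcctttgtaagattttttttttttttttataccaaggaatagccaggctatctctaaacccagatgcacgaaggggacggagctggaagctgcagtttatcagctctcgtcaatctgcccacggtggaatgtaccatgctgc
Fam13a: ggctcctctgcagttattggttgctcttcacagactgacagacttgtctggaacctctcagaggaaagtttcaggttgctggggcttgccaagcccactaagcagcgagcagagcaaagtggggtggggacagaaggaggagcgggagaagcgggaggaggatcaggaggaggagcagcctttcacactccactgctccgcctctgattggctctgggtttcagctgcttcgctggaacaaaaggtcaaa

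The Irs1 window (chr1:82291440-82291689) held an E-box 115 bases before the start and the Irs2 window (chr8:11008930-11009179) held one 44 bases before it. This motif was present in 7.15% of the 32851 promoter windows of the table and in 2 of the 13 windows of the members. The downstream Pik3r1 promoter (chr13:101692631-101692880) held none of the 4 motifs and had 42.4% G and C bases, whereas the upstream one (chr13:101768218-101768467) held 4 GC boxes and had 76.4% G and C bases. GC boxes were present in 35.7% of all windows. The Fam13a window (chr6:59024503-59024752) held none of the 4 motifs. The FoxO core was found in 1 of the 2 Akt1 windows, 161 bases before the start, and in 3.65% of all windows. None of the members' windows held the cyclic AMP response element, which 1.79% of all windows held. UMIs counted at the 3′ end of a transcript cannot tell promoters of 1 gene apart.

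A barcode was used as a cell if it held at least 1000 unique molecular identifiers (UMIs) from at least 500 genes, with no more than 10% of UMIs mitochondrial, which gave 1521 Paqr4 transgenic and 1328 WT cells with medians of 18711 and 21612.5 UMIs. Clustering, from which the 9 genes and the pathway lists were left out, gave 1349 transgenic and 1088 WT progenitors in 5 groups and 79 transgenic and 95 WT blood endothelial cells. Dpp4-like cells (246 transgenic, 303 WT) carried markers of early interstitial progenitors, Icam1-like cells (431 and 269) those of committed preadipocytes, and F3-like cells (252 and 117) those of the subset named for F3, the coagulation initiator. Cluster 1 (305 and 351), led by Adamts4, Tfpi2 and Il6, and cluster 5 (115 and 48), led by Ank3, Piezo2 and Nkain3, had progenitor markers but no state name. The shares of the states differed between the libraries, since Dpp4-like cells and cluster 1 made up 18.2% and 22.6% of transgenic progenitors, against 27.8% and 32.3% of WT progenitors. The 9 blood endothelial markers summed to 11463 and 13210 UMIs per 1000000 UMIs (UPM) in transgenic and WT endothelial cells and to 14.9 and 11.1 UPM in transgenic and WT progenitors. The 8 progenitor markers summed to 158 and 391 UPM in transgenic and WT endothelial cells, against 28505 and 30654 UPM in progenitors. The 7 macrophage markers summed to 2.63 and 3.33 UPM in transgenic and WT progenitors. The 6 B or plasma cell markers summed to 27.2 and 1.32 UPM, and in the transgenic library 1 gene of 1 group, the Icam1-like cells, held most of that sum. The part of these cells in the values below was not tested.

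The libraries also differed in markers of sex, which the labels do not state. Xist was found in 0.222% of transgenic and 94.0% of WT progenitors, and Y-linked genes in 94.1% of transgenic and 2.02% of WT progenitors. Genotype, sex, mice and library preparation therefore cannot be told apart in any value below. Paqr4 itself stood at 9.51 UPM (8.36 to 10.8) in transgenic progenitors and 7.49 UPM (6.46 to 8.65) in WT progenitors. The intervals, here and below, are exact 95% intervals that cover counting error only and leave out variation between cells and mice.

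Across all progenitors, Fam13a differed most of the 9 members between the libraries and was lower in the transgenic one, followed by Pik3r1. The receptor, both AKT kinases and Irs1 differed little. Of the 9 members, 1 was lower by 1.5-fold or more in the transgenic library and none was higher by that much. Over the 8512 genes at a mean of 10 UPM or more, 1.54% were lower and 2.71% were higher by 1.5-fold or more. The median log2 ratio of transgenic over WT was −0.19 over the members and 0.10 over all those genes, and 7 of the 9 members lay below 0. Akt2, the nearest of the 7 to 0 at −0.01, had 29.6% of all those genes below it.

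Insr, the receptor, had 79.9 UPM in transgenic progenitors and 75.4 UPM in WT progenitors, a log2 ratio of 0.08 (−0.01 to 0.17). Irs1, a docking protein, had 64.9 UPM in transgenic and 68.9 UPM in WT progenitors (log2 −0.09, −0.19 to 0.01). Neither interval excluded equal levels in the pooled progenitors. Within states the log2 ratio of Insr was −0.31 in Icam1-like cells, −0.34 in F3-like cells, −0.16 in cluster 1 and 0.23 in Dpp4-like cells. Irs2, the second docking protein, had 129 UPM in transgenic and 147 UPM in WT progenitors (log2 −0.19, −0.25 to −0.12). Pik3r1 encodes the main regulatory subunit of PI3-kinase, which holds the catalytic subunit stable and ties it to the docking proteins. It had 139.8 UPM in transgenic progenitors and 184 UPM in WT progenitors, a log2 ratio of −0.40 (−0.46 to −0.33). Only 3.57% of all genes at the floor had a lower ratio.

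Akt1, the AKT kinase most tied to growth and survival, had 48.1 UPM in transgenic and 43.1 UPM in WT progenitors (log2 0.16, 0.04 to 0.28). Akt2, the AKT kinase most tied to glucose uptake, had 80.8 UPM in transgenic and 81.5 UPM in WT progenitors (log2 −0.01, −0.10 to 0.08). The AKT pair thus lay close to the median of all genes. Foxo1, which restrains the start of fat cell differentiation, had 131 UPM in transgenic and 158 UPM in WT progenitors (log2 −0.27, −0.34 to −0.20). Foxo3, a related factor known for stress resistance, had 71.4 UPM in transgenic and 85.2 UPM in WT progenitors (log2 −0.26, −0.35 to −0.16). The ratios of the FoxO pair were nearly equal.

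Human variants near Fam13a are associated with fat distribution and fasting insulin, and in mouse fat its protein has been linked to the stability of IRS1. The gene had 276 UMIs in 1349 transgenic progenitors and 1019 UMIs in 1088 WT progenitors, that is 10.5 UPM (9.33 to 11.9) against 40.8 UPM (38.4 to 43.4). The level was 3.88-fold lower in the transgenic library, a log2 ratio of −1.95 (−2.15 to −1.76). Only 0.235% of genes at the floor had a lower ratio. Few cells carried the transcript. A UMI was found in 11.3% of transgenic and 25% of WT progenitors, and 5 cells held 13.8% of the transgenic and 19.5% of the WT UMIs. After every cell was thinned to 5000 UMIs, the shares were 4.76% of 1303 transgenic cells (3.67 to 6.06) and 12.3% of 1064 WT cells (10.4 to 14.4). Without the 5 highest cells of each library the log2 ratio was −1.85.

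The neighbours of Fam13a had ratios near 0. Within 1 Mb of the gene, 3 others were at a mean of 10 UPM or more in progenitors. Herc3, a ubiquitin ligase gene, stood at 12.3 UPM in transgenic and 11.0 UPM in WT progenitors (log2 0.16, −0.08 to 0.40). Abcg2, a drug efflux pump, had a log2 ratio of 0.12 (−0.03 to 0.26), and Tigd2, a transposon-derived gene, one of 0.07 (−0.13 to 0.26). The paralogs Fam13b and Fam13c, which stood at 108 and 47.3 UPM in transgenic and at 98.2 and 41.6 UPM in WT progenitors, had log2 ratios of 0.14 and 0.18.

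**Figure D1:**
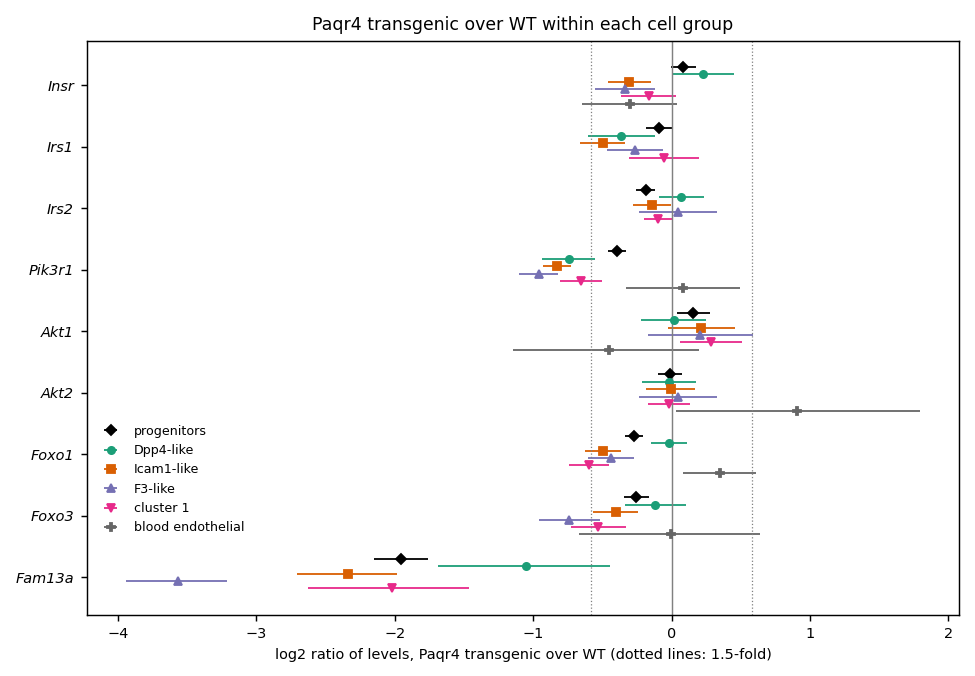
Log2 ratio of the level in Paqr4 transgenic over WT cells for the 9 members (x axis) in all progenitors, in 4 progenitor groups and in blood endothelial cells; bars are 95% intervals for counting error, and points with under 10 UMIs in a library are not drawn. Fam13a lies at −1.05 to −3.57 and Pik3r1 at −0.65 to −0.96 in the 4 progenitor groups, where Akt1 lies at 0.01 to 0.28 and Akt2 at −0.02 to 0.05. In blood endothelial cells Akt1 lies at −0.46 and Akt2 at 0.90.

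In 4 of the 5 progenitor groups the difference in Pik3r1 was wider than over all progenitors, and in the fifth, cluster 5, it ran the other way. Pik3r1 and Fam13a were lower by 1.5-fold or more in the transgenic library in each of the 4 groups with at least 50 cells per library, and no member was higher by that much in any of these 4. Fam13a in Dpp4-like cells was under the floor of a mean of 10 UPM, so the share of genes given for that group does not cover it. Genes lower by 1.5-fold or more made up 2.88% of genes at the floor in Dpp4-like cells, 3.04% in Icam1-like cells, 6% in F3-like cells and 2.59% in cluster 1. Genes higher by that much made up 5.18%, 3.74%, 6.34% and 3.63% in the same groups.

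Pik3r1 stood at 57.9 UPM (51.7 to 64.6) in transgenic and 96.9 UPM (90.1 to 104) in WT Dpp4-like cells. In Icam1-like cells it stood at 182 UPM (172 to 191) in the transgenic and 322 UPM (307 to 337) in the WT library. F3-like cells held 188 UPM (176 to 201.5) in the transgenic and 367 UPM (342 to 393) in the WT library. The log2 ratios were −0.74 in Dpp4-like, −0.83 in Icam1-like and −0.96 in F3-like cells, and −0.65 in cluster 1, where 82.4 and 129 UPM were measured in transgenic and WT cells. In none of these groups did the intervals of the 2 libraries overlap. Blood endothelial cells held 140.9 UPM (113 to 174) in the transgenic and 133 UPM (111 to 158) in the WT library, and these intervals overlapped. Cluster 5 held 287 UPM (263 to 312) in the transgenic and 184 UPM (157 to 213) in the WT library, with intervals apart and the transgenic library higher. The WT value came from 48 cells, of which 5 held 43% of the UMIs. No group matched cluster 5 when the libraries were clustered separately. The size in F3-like cells rested on how cells were grouped, since the log2 ratio was −0.37 when the libraries were clustered separately. In Icam1-like cells it was −0.58, just under 1.5-fold, at the coarsest clustering.

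Equal depth gave the same order for Pik3r1. At 5000 UMIs per cell it was found in 53.9% of transgenic and 74.7% of WT Icam1-like cells, in 47.1% of transgenic and 75.7% of WT F3-like cells, and in 23.7% of transgenic and 36.0% of WT Dpp4-like cells. The unthinned shares were 78.7% and 93.3%, 78.6% and 94.9%, and 58.9% and 74.6% in the same pairs. In these groups and libraries 5 cells held between 7.17% and 19.4% of the Pik3r1 UMIs.

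Fam13a differed most in F3-like cells, with 16.7 UPM (13.1 to 20.9) in the transgenic library and 197 UPM (179 to 217) in the WT library. That was 11.8-fold lower, a log2 ratio of −3.57 (−3.94 to −3.21). In Icam1-like cells it had 10.7 UPM in the transgenic and 54.1 UPM in the WT library (log2 −2.34, −2.70 to −1.98). Cluster 1 had 4.83 UPM in the transgenic and 19.6 UPM in the WT library (log2 −2.02), and Dpp4-like cells 5.59 UPM in the transgenic and 11.6 UPM in the WT library (log2 −1.05, −1.69 to −0.45). The transcript was found in 14.7% of transgenic and 49.6% of WT F3-like cells, and at 5000 UMIs per cell in 7.38% and 29.6%. At least 5 UMIs were seen in 1.59% of transgenic and 19.7% of WT F3-like cells. In WT F3-like cells 5 cells held 37.0% of the UMIs, and in transgenic ones 5 cells held 42.7%. Over the alternatives the ratio in F3-like cells ranged between −3.74 and −2.25. It was −2.26 with the libraries clustered separately, −2.25 under stricter limits on cells, −2.81 with doublets kept and −2.97 at the coarsest clustering. In Dpp4-like cells the smallest difference was −0.60, without the 5% of cells with the most UMIs.

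The FoxO pair were lower in transgenic Icam1-like cells, F3-like cells and cluster 1, but near equal in Dpp4-like cells. Foxo1 stood at 93.1 UPM (85.8 to 101) in transgenic and 141 UPM (133 to 149) in WT cells of cluster 1, a log2 ratio of −0.59 (−0.74 to −0.45). It had 125 and 176 UPM in transgenic and WT Icam1-like cells (log2 −0.50), and 164 and 222 UPM in transgenic and WT F3-like cells (log2 −0.44). In Dpp4-like cells it had 151 UPM in the transgenic and 153 UPM in the WT library (log2 −0.02, −0.15 to 0.11). Cluster 5 held more Foxo1 in the transgenic library, with 149.7 UPM (133 to 168) against 104 UPM (84.1 to 126) in the WT library. Foxo3 stood at 86.9 UPM (78.5 to 95.9) in transgenic and 145 UPM (129 to 162) in WT F3-like cells, a log2 ratio of −0.74 (−0.95 to −0.52). The ratio of Foxo3 was −0.53 in cluster 1, −0.40 in Icam1-like and −0.12 in Dpp4-like cells. Foxo3 in F3-like cells and Foxo1 in cluster 1 lay past 1.5-fold. For Foxo3 in F3-like cells the alternatives gave −0.95 to −0.40, and the value fell short of 1.5-fold under stricter limits on cells (−0.40) and with doublets kept (−0.56). For Foxo1 in cluster 1 they gave −0.66 to −0.51.

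The receptor and the docking proteins differed less in the 4 groups with at least 50 cells per library. Insr stood at 55.4 UPM in transgenic and 47.3 UPM in WT Dpp4-like cells (log2 0.23, 0.00 to 0.45), but at 93.8 UPM in transgenic and 116 UPM in WT Icam1-like cells (log2 −0.31, −0.46 to −0.15) and at 102 UPM in transgenic and 129 UPM in WT F3-like cells (log2 −0.34). Whether these ratios differ between states was not tested. Irs1 had log2 ratios of −0.36 in Dpp4-like, −0.50 in Icam1-like, −0.27 in F3-like cells and −0.05 in cluster 1. In WT Icam1-like cells 1 cell alone held 112 Irs1 UMIs, 5 cells held 38.1% of them, and without the 5 highest cells of each library the ratio was −0.07. It was −0.09 under stricter limits on cells. Irs2 had log2 ratios of 0.07, −0.14, 0.04 and −0.10 in the same groups. Akt1 (0.01, 0.21, 0.21 and 0.28) and Akt2 (−0.02, −0.01, 0.05 and −0.02) were also within 1.5-fold there. In cluster 5 the WT library had 48 cells. Insr stood in that group at 129 UPM (113 to 146) in transgenic and 83.3 UPM (65.9 to 104) in WT cells. Irs1 had 41.3 UPM (32.6 to 51.5) in transgenic and 76.9 UPM (60.2 to 96.9) in WT cells. Irs2 had 125 UPM (110 to 142) in transgenic and 189 UPM (162 to 219) in WT cells. For each of these genes the intervals lay apart.

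Beside these ratios, median UMIs per progenitor were 19380 in the transgenic and 22837.5 in the WT library, the median mitochondrial share was 1.85% and 1.86%, and Malat1, a nuclear RNA, stood at 19372 and 15586 UPM. Barcodes with 50 UMIs or fewer, which hold mostly free RNA, had 7.08 UPM of Fam13a and 61.2 UPM of Pik3r1 in the transgenic library and 15.3 and 69.5 UPM in the WT library. The part of depth, free RNA and nuclear RNA in the ratios was not tested beyond the thinned values above.

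Across cell states, the 9 genes followed several patterns. Of the 9 members, 5 were higher by 1.5-fold or more in Icam1-like than in Dpp4-like cells in both libraries and none was lower. Over 8591 genes, 9.39% were higher and 5.75% lower by that rule. The 5 were Pik3r1, Irs1, Insr, Foxo3 and Fam13a. The median log2 ratio of Icam1-like over Dpp4-like cells was 0.71 in the transgenic and 0.99 in the WT library over the members, against 0.13 and 0.16 over all genes. Clusters of 1 library are not replicates, so these are descriptions.

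Set against all other progenitors, 5 members were lower by 1.5-fold or more in Dpp4-like cells of both libraries and none was higher, where 7.9% of genes were lower and 4.71% higher. These were Pik3r1, with log2 ratios of −1.48 in the transgenic and −1.21 in the WT library, and Irs1, Insr, Foxo3 and Fam13a. They are the same 5 genes as in the comparison above. Both comparisons use the same Dpp4-like sums, and Icam1-like cells are among the other progenitors, so this overlap is partly built in. The transgenic ratio of Foxo3 and the WT ratio of Irs1, both −0.59, lay at the threshold. With the libraries clustered separately they were −0.57 and −0.48, short of 1.5-fold. In Icam1-like cells no member passed 1.5-fold in both libraries in either direction, against 3.56% of genes higher and 4.05% lower. F3-like cells had 2 members higher (Irs1 and Fam13a) and 1 lower (Irs2), against 4.6% of genes higher and 3.74% lower. Cluster 1 had 1 member higher (Irs2) and 3 lower (Irs1, Pik3r1 and Fam13a), against 4.42% of genes higher and 10.1% lower. Cluster 5 had 1 member higher (Foxo3) and none lower, against 6.54% of genes higher and 5.66% lower.

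**Figure D2:**
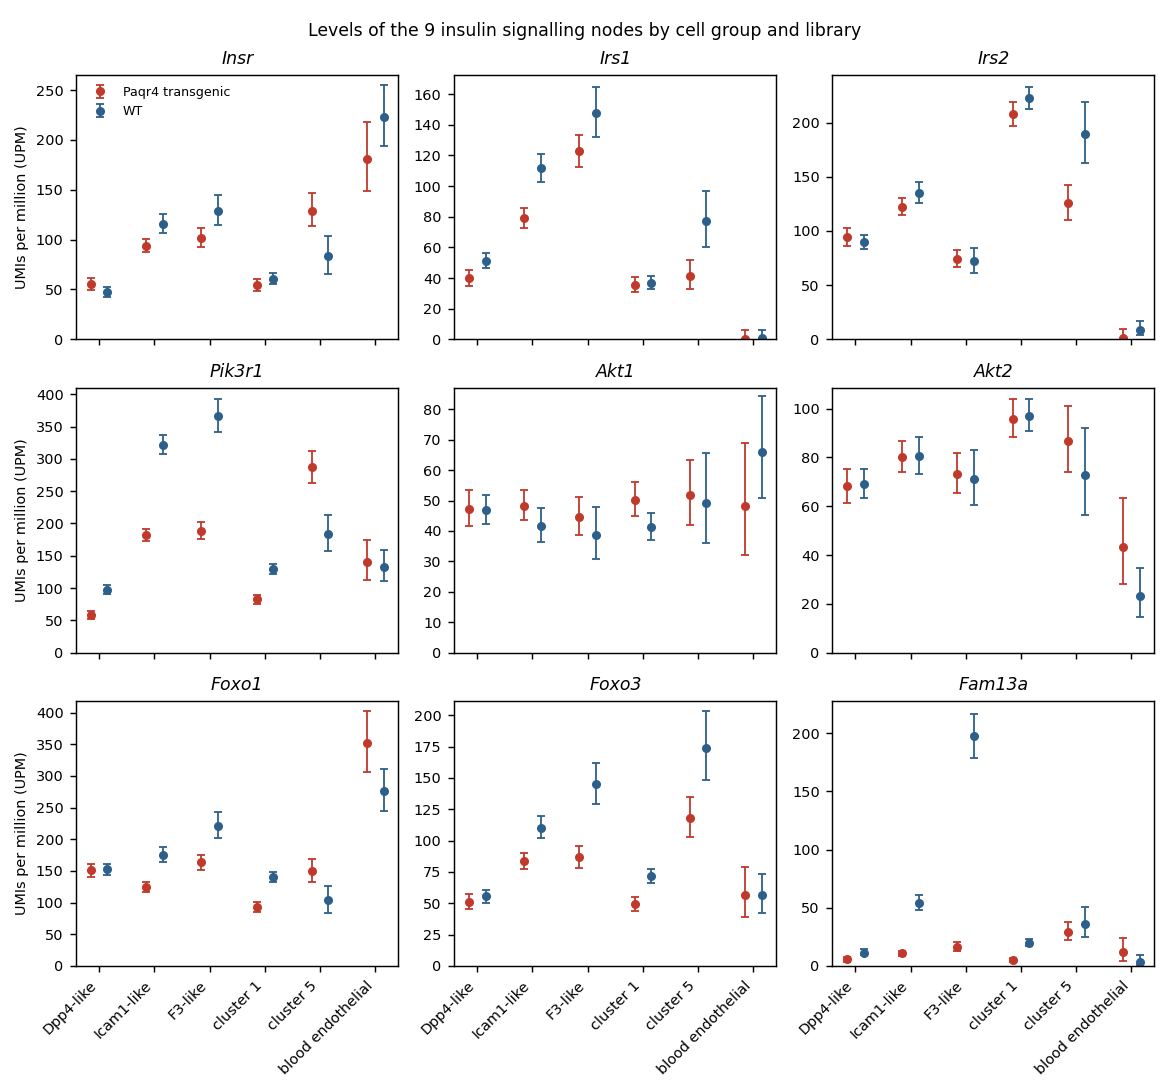
Level of each of the 9 genes (y axis, UPM, from 0) in 5 progenitor groups and blood endothelial cells (x axis), with Paqr4 transgenic in red and WT in blue; points are sums over cells and bars are 95% intervals for counting error. Irs2 peaks in cluster 1 (208 and 222 UPM), Irs1 in F3-like cells (123 and 148 UPM), both are near 0 in endothelial cells, and Fam13a stands out in WT F3-like cells at 197 UPM.

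Pik3r1 had a wide step between the early and the committed state, with log2 ratios of Icam1-like over Dpp4-like cells of 1.65 (1.47 to 1.83) in the transgenic and 1.73 (1.61 to 1.86) in the WT library. The intervals of the step overlapped between the libraries, although the levels differed. For Insr the same ratio was 0.76 (0.57 to 0.96) in the transgenic and 1.29 (1.11 to 1.48) in the WT library, for Irs1 0.99 and 1.12, for Foxo3 0.71 and 0.99, and for Fam13a 0.94 and 2.23. Akt1 (0.03 and −0.17), Akt2 (0.24 and 0.22) and Foxo1 (−0.28 and 0.20) were within 1.5-fold. The Icam1-like levels depend on the clustering. At the coarsest one, where no separate cluster 1 was found and the cluster named Icam1-like had 612 transgenic and 575 WT cells, the levels of Insr, Irs1 and Pik3r1 in that cluster over the other progenitors were −0.47, −0.84 and −0.63 in the transgenic library, against 0.34, 0.43 and 0.57 here. In the WT library they were −0.18, −0.28 and −0.53, against 0.85, 0.97 and 1.14 here.

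The docking proteins peaked in different progenitor groups. Irs1 was highest among progenitors in F3-like cells, with 123 UPM (113 to 133) in the transgenic and 148 UPM (132 to 165) in the WT library, and lowest in cluster 1, with 35.7 and 37.0 UPM. In the transgenic library the Irs1 interval of cluster 1 overlapped those of Dpp4-like cells and cluster 5. Between F3-like cells and cluster 1, Irs2 ran the other way. It was highest in cluster 1, with 208 UPM (197 to 219) in the transgenic and 222 UPM (212 to 233) in the WT library, and low in F3-like cells, with 74.2 and 72.0 UPM. Its WT level in cluster 5, 189 UPM from 48 cells, had an interval that overlapped that of cluster 1. Irs2 was detected in 88.2% of transgenic and 90.3% of WT cells of cluster 1, against 54.8% and 52.1% of F3-like cells. At 5000 UMIs per cell these shares were 58.0% and 56.5% in cluster 1 and 23.8% and 19.1% in F3-like cells. Over the other progenitors, the log2 ratio of cluster 1 was 1.00 and 1.04 for Irs2 and −1.06 and −1.21 for Irs1 in the transgenic and WT library.

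The share of Irs1 among the UMIs of both docking genes makes the shift visible, although 3′ capture can differ between genes, so the share tells states apart and does not give a ratio of molecules. It was 62.3% (59.0 to 65.5) in transgenic and 67.2% (62.8 to 71.4) in WT F3-like cells. In cluster 1 it was 14.7% (12.9 to 16.5) in the transgenic and 14.3% (12.8 to 15.8) in the WT library. Icam1-like cells lay between, at 39.2% and 45.2%, as did Dpp4-like cells at 29.7% and 36.3% and cluster 5 at 24.8% and 28.9% in the transgenic and WT library. The order of the 5 groups was the same in both libraries, and in each of them Dpp4-like cells and cluster 5 were the neighbours whose intervals overlapped. In WT Icam1-like cells a few cells held much of the Irs1 sum, as given above. The shares and their order without those cells were not computed.

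**Figure D3:**
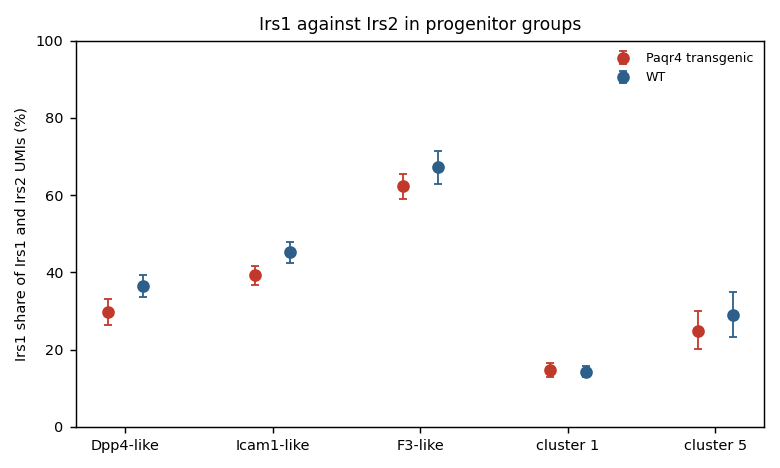
Share of Irs1 among the summed UMIs of Irs1 and Irs2 (y axis, percent) in the 5 progenitor groups (x axis), Paqr4 transgenic in red left of WT in blue; bars are exact 95% binomial intervals. Both libraries are highest in F3-like cells (62.3% and 67.2%) and lowest in cluster 1 (14.7% and 14.3%).

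Irs1 was also uneven among cells of 1 state. In transgenic F3-like cells 1 cell held 86 UMIs and 5 cells held 30.6% of the sum, whereas for Irs2 in cluster 1 the 5 highest cells held 8.02% of the transgenic and 6.60% of the WT sum. Foxo1 had its peak outside the progenitors. Its highest levels among them were in F3-like cells in both libraries, and its lowest were in cluster 1 in the transgenic library (93.1 UPM) and in cluster 5 in the WT library (104 UPM). Foxo3 was highest in cluster 5, with 118 UPM (103 to 135) in the transgenic and 174 UPM (148 to 203) in the WT library, where 5 of the 48 cells held 46.6% of the UMIs. The WT interval of Foxo3 in cluster 5 overlapped that in F3-like cells. The lowest levels of Foxo3 were 49.5 UPM in transgenic cluster 1 and 55.6 UPM in WT Dpp4-like cells.

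Akt1 varied little in the transgenic library and more in the WT one. It ranged between 44.7 and 51.9 UPM over the transgenic groups and between 38.7 and 65.9 UPM over the WT groups, and every neighbouring pair in the order had overlapping intervals. In the WT library the highest and lowest groups differed 1.70-fold, with 65.9 UPM (50.7 to 84.3) in endothelial and 38.7 UPM (30.9 to 47.9) in F3-like cells, and these intervals lay apart. Akt2 was highest in cluster 1, with 95.9 UPM in the transgenic and 97.2 UPM in the WT library, and lowest in endothelial cells. In both libraries the Akt2 interval of cluster 1 overlapped that of cluster 5. Fam13a was highest in cluster 5 in the transgenic library, with 29.1 UPM (21.9 to 37.9), and in F3-like cells in the WT library, with 197 UPM. In cluster 5 of the WT library, which had 48 cells, it stood at 36.3 UPM (25.2 to 50.8), so no ratio between libraries is given there.

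Blood endothelial cells carried the receptor transcript but few or no UMIs of either docking gene. Insr stood at 181 UPM (148 to 218) in transgenic and 223 UPM (194 to 255) in WT endothelial cells, the highest of the 6 cell groups in both libraries. Irs1 had 0 UMIs in 79 transgenic cells and 1 UMI in 95 WT cells, and Irs2 had 1 and 8 UMIs. Of the 8 WT Irs2 UMIs, 7 were in 1 cell. Barcodes with 50 UMIs or fewer held more, 48.0 and 31.9 UPM of Irs1 and 70.3 and 71.3 UPM of Irs2 in the transgenic and WT library. Irs1 was found in 43.7% of transgenic and 51.6% of WT progenitors, against none of the transgenic endothelial cells (up to 4.56%) and 1.05% of the WT ones. Median depth was 7584 and 9857 UMIs in transgenic and WT endothelial cells. At 5000 UMIs per cell Irs2 was found in 1.59% of 63 transgenic and 1.30% of 77 WT endothelial cells, against 38.2% and 39.8% of progenitors. Against progenitors, the log2 ratio of Irs2 was −6.29 (−11.6 to −3.81) in the transgenic and −4.14 (−5.35 to −3.16) in the WT library. For Irs1 it was −3.70 in the transgenic library with the count of 0 set to 3 UMIs, and the upper limit of its interval was −3.41. In the WT library it was −6.04 (−11.3 to −3.56).

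Endothelial cells also had the highest Foxo1, a factor known there for vessel growth and quiescence, with 351.5 UPM (306 to 402) in the transgenic and 276 UPM (244 to 312) in the WT library. It was found in 77.2% of transgenic and 77.9% of WT endothelial cells, and in 74.6% and 67.5% at 5000 UMIs per cell. Akt2 was low, at 43.1 UPM in transgenic and 23.0 UPM in WT endothelial cells, which rest on 26 and 22 UMIs. Over progenitors, 2 members (Insr and Foxo1) were higher and 3 (Irs1, Irs2 and Akt2) lower by 1.5-fold or more in both libraries, where 26.2% of 9132 genes were higher and 17.8% lower by that rule. Between genotypes, Akt2 had a log2 ratio of 0.90 (0.03 to 1.79) in endothelial cells, 0.30 as a mean over cells, and Foxo1 one of 0.35 (0.08 to 0.61). In these cells 14.3% of genes were higher and 17.3% lower by 1.5-fold or more, so ratios of that size were common at this depth. The 6 erythroid markers summed to 10056 and 9964 UPM in transgenic and WT endothelial cells, against 544 and 698 UPM in progenitors, and their part in the endothelial levels was not tested. For Irs1, Irs2 and Fam13a the counts of 0 to 8 UMIs allow no comparison of the genotypes.

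The wider pathway was read from 6 lists of known genes, which include the members. In progenitors, none of the 11 receptor and adaptor genes at the floor (of 15 listed), none of the 10 PI3-kinase and AKT genes (of 14), none of the 14 brakes on the pathway (of 18) and none of the 21 FoxO factors and targets (of 25) differed by 1.5-fold between the libraries. At a floor of 1 UPM, 1 receptor or adaptor gene, 3 brakes and 1 FoxO gene did, and with the median of genes at 50 UPM set to 0, 1 brake and 1 FoxO gene did. As reported, Grb10 among the brakes (log2 −0.56, −0.60 to −0.51) and Gadd45a among the FoxO targets (log2 −0.55, −0.66 to −0.43) were lower, just under 1.5-fold. Of 14 downstream effectors at the floor (of 17), 1 was higher. This was Eif4ebp1, a translation repressor controlled by mTOR, with 28.3 UPM in transgenic and 16.8 UPM in WT progenitors (log2 0.75, 0.58 to 0.93). The list medians of log2 transgenic over WT were 0.08 for receptors and adaptors, 0.13 for the PI3-kinase and AKT core, −0.07 for brakes, 0.15 for downstream effectors and −0.11 for FoxO factors and targets, against 0.10 over all genes. Of the 3 genes of the Fam13 family, Fam13a alone was past 1.5-fold. Partners of the members were within 1.5-fold. Pik3ca, the catalytic partner of the Pik3r1 product, stood at 93.0 UPM in transgenic and 78.9 UPM in WT progenitors (log2 0.24, 0.15 to 0.32), opposite in sign to Pik3r1. Igf1r, the receptor of insulin-like growth factor, had a log2 ratio of 0.16.

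Brakes on the pathway and FoxO targets also differed between states. The genes in this and the next paragraph were picked from the lists after their values were known, as those past 1.5-fold in both libraries. In cluster 1, where Irs2 was high and Irs1 low, 4 of 15 brakes at the floor were higher than in the other progenitors, where 4.42% of all genes were. Trib1, a pseudokinase, had 271 UPM in cluster 1 against 55.5 UPM in other progenitors of the transgenic library (log2 2.29), and the WT ratio was 2.53. Socs3 and Socs1, cytokine-induced inhibitors that also bind IRS proteins, had ratios of 1.23 and 1.54 in the transgenic and 1.11 and 0.94 in the WT library. Ptpn2, a tyrosine phosphatase, had 0.75 and 0.70. Grb10, an adaptor that restrains the insulin receptor, and Phlpp1, a phosphatase of AKT, were lower there, with ratios of −0.90 and −0.60 in the transgenic and −0.62 and −0.97 in the WT library. Among the FoxO targets, Sod2 (1.42 and 1.71) and Gadd45a (1.42 and 1.50) were higher and Txnip (−1.71 and −1.84), Sesn1 (−1.16 and −1.09) and Cited2 (−0.59 and −1.06) lower in the transgenic and WT library, so the list did not move as one. In all, 3 of its 20 genes at the floor were higher and 3 lower. Across all genes 10.1% were lower in cluster 1. In F3-like cells 1 of 15 brakes at the floor was higher and 4 were lower than in the other progenitors. Of 22 FoxO factors and targets, 0 were higher and 3 lower there, against 4.6% and 3.74% of all genes. Cluster 1 and F3-like cells are each in the set the other was compared with. In Icam1-like over Dpp4-like cells, 4 of the 22 FoxO factors and targets at the floor were higher and 1 was lower, against 9.39% and 5.75% of all genes. Beside the members Insr and Foxo3, Txnip (1.50 and 1.44) and Pdk4 (0.89 and 0.70) were higher and Cdkn1a (−0.70 and −0.61) was lower.

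In endothelial cells 2 of the 12 PI3-kinase and AKT genes at the floor were higher than in progenitors and 2 were lower. Neither share was above that over all genes, given below. Pik3r3, another regulatory subunit of PI3-kinase, stood at 267 UPM against 8.4 UPM in progenitors of the transgenic library and at 189 against 10.7 UPM in the WT library, log2 ratios of 4.99 and 4.15. Pik3cb, a catalytic subunit, had 84.6 against 3.74 UPM in the transgenic and 60.7 against 3.33 UPM in the WT library. Pik3r2 was low, at 1.66 and 4.19 UPM in transgenic and WT endothelial cells against 18.0 and 17.7 UPM in progenitors. The pseudokinase Trib2 stood at 74.6 and 118 UPM in transgenic and WT endothelial cells and at 1.91 and 1.00 UPM in progenitors. Of the 14 brakes at the floor, 4 were higher and 4 lower, the lower ones being Socs1, Socs3, Trib1 and Ptpn2, the same 4 genes that were higher in cluster 1. Cluster 1 is part of the progenitors compared here, so the overlap of these genes is partly built in. Over all genes 26.2% were higher and 17.8% lower in this comparison. Of the 11 receptors and adaptors at the floor, 5 were higher, Insr, Grb2, Sos1 and Cbl among them, and 2 were lower (Irs1 and Irs2), a share of lower genes close to that over all genes.

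Genes whose levels followed each member most closely were sought over the 11 sums of 1 state in 1 library with at least 50 cells, among 6390 genes at 20 UPM or more. The sums share 2 libraries, their depths and the endothelial cells, which differ from progenitors in many genes, so the correlations are descriptions. Irs2 was most like Il1rl2 (r = 0.991), Rgs20 and Wt1, and Irs1 most like Arhgap10 (0.987), Abca6 and Arhgef25. Insr was most like Tnrc6c (0.982), Grasp and Fbxo9. Akt2 was most like Gem (0.985), Trip6 and Pvt1, Akt1 most like Wdfy1 (0.919), Metap2 and Ap2a1, and Foxo1 most like Zkscan1 (0.95), Ubl5 and Hnrnph3. The gene closest to Pik3r1 among all 6390 was another member, Foxo3 (0.938), ahead of Map1lc3b and Mn1. Foxo3 was in turn closest to Pik3r1, ahead of Ppt1 and Mamdc2. Fam13a was closest to Foxo3 (0.892), followed by Mxi1 and Cped1. Irs1 and Irs2 had an r of 0.860 although they ran in opposite directions between F3-like cells and cluster 1. Both were near 0 in the 2 endothelial sums.

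**Figure D4:**
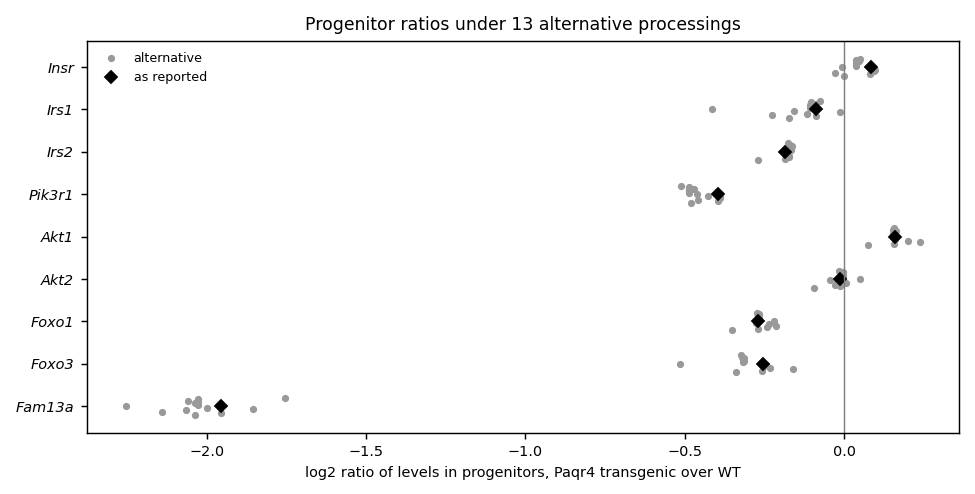
Log2 ratio of the level in all progenitors, Paqr4 transgenic over WT (x axis), for the 9 members as reported (diamonds) and under 13 alternative scalings, cell limits, weights and clusterings (grey points). Fam13a lies between −2.25 and −1.76 and Pik3r1 between −0.51 and −0.39 under all of them, while the points of Insr and Akt2 lie on both sides of 0.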

How the data were processed

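The deposited files hold counts, unnormalised UMIs per gene and barcode, that the authors made with Cell Ranger 7.0.0 on mm10, per the submitters' processing notes. The matrix header names Cell Ranger 4 instead. No barcode filter had been applied. Each library held 32286 features, and the 78 that shared 38 symbols were summed. Total depth was 43084906 UMIs in the Paqr4 transgenic and 44145257 in the WT library, and the cells held 28230354 and 28418301 of these. Haemoglobin made up 29.1% and 28.2% of all UMIs but 0.654% and 0.676% of those in cells, and no cell barcode was shared.

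Scrublet called 4 and 1 doublets, too few to show that it worked, and these were removed. For clustering only, each cell was scaled to a total of 10000 and its log taken. Cells were clustered by the Leiden method in scanpy 1.11.5 (resolution 0.5, seed 1) on 2000 variable genes, members and lists left out, with 30 components and 15 neighbours. Clusters were named from marker lists when at least 50% and at least 3 markers lay at 25% of their maximum and at 20 UPM or more, and states when 3 markers lay 1.5-fold above other progenitors. These thresholds, the members and the lists were chosen with earlier results of these data known. 3 clusters stayed unnamed. Levels are UMIs summed per group and library per 1000000 UMIs, with exact Poisson intervals; shares of cells have Clopper-Pearson intervals and ratios conditional binomial ones. Without replicates no test was run. Named genes are all members, list genes past 1.5-fold in progenitors at 10 UPM or more, and the 3 genes most correlated with each member on log2(UPM + 1); the other list genes named were chosen after their values were seen. The alternatives varied the scaling, cells, depth, weights and clustering.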

Additional observations from a re-analysis of the deposited data

Results flagged for a closer look

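Among the 4 progenitor groups with at least 50 cells per library and endothelial cells, the ratio of Paqr4 transgenic over WT had opposite signs in different cell groups for 2 members, with 95% counting intervals on either side of 0. The log2 ratio of Insr was 0.23 in Dpp4-like cells, and −0.31 in Icam1-like and −0.34 in F3-like cells. In Dpp4-like cells the interval came close to 0, and the ratio there was 0.09 when cells were thinned to 5000 UMIs. Foxo1 had a log2 ratio of 0.35 in blood endothelial cells, and −0.5 in Icam1-like cells, −0.44 in F3-like cells and −0.59 in cluster 1. The endothelial value rests on 79 transgenic and 95 WT cells. In cluster 5, where the WT library had 48 cells, Pik3r1 (287 and 184 UPM in transgenic and WT cells) and Foxo1 (149.7 and 104 UPM) were higher in the transgenic library with intervals apart, opposite to their direction in Icam1-like cells, F3-like cells and cluster 1. Insr (129 and 83.3 UPM) was also higher in transgenic cluster 5 with intervals apart, opposite to its direction in Icam1-like and F3-like cells. With 1 library per genotype the difference between cell groups was not tested.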

How the results depend on the processing

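No paired analysis was possible because each genotype had 1 library. Of 117 values of the progenitor ratios under 13 alternatives, 100 stayed within the counting interval of the reported value and 17 moved outside it. Setting the median of genes at 50 UPM to 0 gave −0.27 for Irs2, −0.48 for Pik3r1 and −0.35 for Foxo1. Thinning cells to 5000 UMIs gave −0.028 for Insr, −0.23 for Irs1 and −0.16 for Foxo3. Equal weights of the 5 states gave −0.41 for Irs1, −0.46 for Pik3r1, −0.52 for Foxo3 and −2.25 for Fam13a. Stricter limits on cells (2000 UMIs, 1000 genes, 5% mitochondrial UMIs) gave −0.51 for Pik3r1 and −1.76 for Fam13a. For Pik3r1 the clustering with members and lists, resolutions 0.3 and 1.0 and doublets kept each gave −0.49, and each library clustered on its own gave −0.47. In states and endothelial cells 430 of 477 ratios stayed within their intervals and 47 moved, and 54 changed sign, none of them 1.5-fold or more as reported. Of 270 levels of a state over the other progenitors 175 stayed within their intervals and 26 changed sign, 15 of these in Icam1-like cells at resolution 0.3. Those past 1.5-fold as reported were WT Insr (−0.18), Irs1 (−0.28) and Pik3r1 (−0.53). The median of the brakes was −0.35 at a floor of 50 UPM and 0.01 at 1 UPM. Of the downstream effectors, 0 lay past 1.5-fold at a floor of 50 UPM and 2 with equal weights of the states. Cluster 1 could not be matched at resolution 0.3, with doublets kept or under stricter limits, and these values were not run. Cluster 5 could not be matched with each library clustered on its own. The ratios and levels of cluster 5 were not run under any alternative. The alternative without the 5% of cells with the most UMIs was chosen after seeing the data. The cause of these shifts was not tested. Depth limits the endothelial values of Irs1, Irs2 and Fam13a.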
